A study of Mus musculus with 3 samples.

Results

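Cells make cholesterol from acetyl-CoA through the mevalonate and sterol steps, and the 28 genes described here cover 19 enzymes of that route and 9 genes that sense, move or export sterols. They were picked by exact gene symbol from the 32285 genes listed in the count tables of a mouse bone marrow study, and all 28 were found. The study profiled lineage-depleted marrow by droplet single-cell RNA sequencing, with 1 library for each of 3 genotypes. The number of mice behind a library is not given in the labels.

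The Cre-negative control came from Rit1M90I/+ mice that lack Mx1Cre, so it carries the Rit1-M90I allele too, although it is titled wild type. The Lztr1 knockout came from Lztr1fl/fl;Mx1Cre+ mice, and the Rit1-M90I library from Rit1M90I/+;Mx1Cre+ mice. RIT1 is a RAS-like GTPase, and LZTR1 is the adaptor through which a CUL3 ubiquitin ligase marks RIT1 for breakdown. Mice of every group were 8 weeks old when they were given 3 doses of pIpC at 12 mg/kg, a synthetic double-stranded RNA that induces interferon and with it the Mx1 promoter that drives Cre. That promoter is active in many interferon-responsive cells, so deletion is not limited to blood cells. Marrow was collected 4 weeks later and sorted for live cells negative for CD3, CD11b, Gr1, B220 and Ter119. Mx1Cre is present in both mutant libraries and absent from the control, so effects of Cre and of genotype cannot be told apart.

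Cholesterol synthesis is controlled mainly by the transcription factor SREBP2, which is carried by SCAP from the endoplasmic reticulum to the Golgi for cleavage when membrane sterol is low, and is held back by INSIG proteins when sterol is high. Oxysterols that build up with excess cholesterol activate the LXR nuclear receptors, whose targets include the cholesterol exporters ABCA1 and ABCG1. The same route supplies isoprenoids, which anchor RAS-family GTPases to membranes. In marrow, dividing progenitors need sterol for new membranes, and ABCA1 and ABCG1 are known to restrain the growth of stem and multipotent progenitors.

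Values given in groups of 3 are for the control, then the Lztr1 knockout, then Rit1-M90I. The libraries held 8476, 3014 and 11573 barcodes and 30398349 to 88560148 UMIs, which are counts of distinct mRNA tags. After filters and removal of called doublets, 2338 to 9351 cells per library were kept, with a median of 6584 to 9922.5 UMIs. Between 2 and 9 kept barcodes were shared by a pair of libraries. Cells were gated by marker scores into populations, of which 7 held at least 100 cells in every library and 14 gave levels, and 30.1% to 36.0% of cells stayed ungated. A gate is a range of a score and not a cell type, and the sort did not remove every T cell, since the T cell gate held 473, 56 and 300 cells. Levels are CPM, a gene's UMIs scaled to a common total for each population and library. They come from 3' tags and are not divided by length, so they are compared between populations and libraries and not between genes. With 1 library per genotype no test was possible. Except where stated, an interval in parentheses is an exact 95% interval for counting error. It leaves out the spread between mice and between cells. Lztr1 mRNA was at 17.3 CPM in the control, 6.34 CPM for the Lztr1 knockout library and 15.2 CPM for Rit1-M90I over all kept cells. By gate the knockout level was below the control in erythroid progenitors, at 4.69 against 19.1 CPM, but not clearly in basophils and mast cells, at 12.3 against 13.5 CPM (10 and 37 UMIs). Stem and multipotent cells of the knockout had 11.9 CPM (12 UMIs), against 18.1 CPM in the control and 11.3 CPM in Rit1-M90I. Loss of Lztr1 is therefore not shown for those 2 gates, the knockout is named after its label, and 3' tags can lie outside the deleted part. The level of Rit1 mRNA does not check a point mutation.

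The promoters of these genes share a sequence feature that the choice of genes did not use. RefSeq start sites on GRCm38.p6 were used for 23 of the 28. The chromosome that carries Stard4 was left out of the search, for the members and for the background genes alike. The 250 bases before the start were searched on both strands. The motifs were CCAAT, the box bound by NF-Y, GGGCGG, the box bound by SP1, and TCACNCCAC, a form of the sterol regulatory element bound by SREBP. CCAAT was found in 19 of 23 (82.6%), against 37.5% of 27025 genes with an entry and 40.2% of the 4772 of them that reached 20 CPM in the control. Among the enzymes it was in 15 of 16, all but Acat2, and among the sensing and export genes in 4 of 7, with Scap, Nr1h2 and Abca1 lacking it in this window. GGGCGG was in 20 of 23 (87.0%), against 35.4% of all genes and 66.3% of those expressed. TCACNCCAC was in 1 of 23, Hmgcs1, against 1.22% of all genes. None of these motifs contains another, a match describes letters and not a bound site, and members listed with more than 1 start had more chances to match. The sequences of 3 members that the results below turn on are shown 5' to 3' on the plus strand, with CCAAT (read as ATTGG on this strand) and TCACNCCAC in capitals. They are the 250 bases before the start of Hmgcs1 (chr13:119690101-119690350), 201 bases of the Insig1 window (chr5:28071162-28071362) and 162 bases of the Srebf2 window (chr15:82147019-82147180). Hmgcs1 carries 3 CCAAT matches and 1 TCACNCCAC match, and the other two carry 1 CCAAT match each.
Hmgcs1: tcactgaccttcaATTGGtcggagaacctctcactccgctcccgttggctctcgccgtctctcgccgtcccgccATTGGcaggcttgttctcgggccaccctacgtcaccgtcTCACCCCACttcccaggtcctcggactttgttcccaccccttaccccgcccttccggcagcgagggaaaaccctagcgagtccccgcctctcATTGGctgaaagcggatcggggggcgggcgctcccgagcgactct
Insig1: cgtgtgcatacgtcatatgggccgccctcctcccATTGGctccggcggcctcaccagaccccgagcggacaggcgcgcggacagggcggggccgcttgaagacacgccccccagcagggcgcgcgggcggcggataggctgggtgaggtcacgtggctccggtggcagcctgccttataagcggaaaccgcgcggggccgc
Srebf2: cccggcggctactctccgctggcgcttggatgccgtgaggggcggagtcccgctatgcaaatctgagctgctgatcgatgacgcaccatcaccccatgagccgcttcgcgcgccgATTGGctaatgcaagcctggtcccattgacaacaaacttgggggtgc

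Transcripts of the 19 synthesis enzymes were most abundant in the plasmacytoid gate, and this held in each library. Their summed level there was 526 CPM (496 to 558) in the control, 587 CPM (542 to 635) for the Lztr1 knockout library and 738 CPM (702 to 775) for Rit1-M90I. The conventional dendritic cell gate, with 38 to 141 cells, came next at 507, 465 and 600 CPM, and its interval overlapped that of the plasmacytoid gate except in Rit1-M90I. The monocyte gate followed with 451, 455 and 459 CPM.

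The remaining large gates lay lower and closer together. The sum was 346, 404 and 395 CPM in neutrophil progenitors and 323, 315 and 285 CPM in erythroid progenitors. Lymphoid progenitors had 287, 305 and 320 CPM, basophils and mast cells 273, 276 and 289 CPM, and the stem and multipotent gate 269, 303 and 297 CPM. Plasma cells, which secrete antibody, had the lowest sum of the 14 populations in every library, at 175, 178 and 183 CPM. Over the 7 large gates the highest sum exceeded the lowest by 1.96 times (1.72 to 2.23) in the control, 2.13 times (1.72 to 2.64) for the Lztr1 knockout library and 2.59 times (2.39 to 2.81) for Rit1-M90I. Fdps holds the most UMIs of the enzymes, and without it these ratios were 1.5, 1.62 and 2.03, and the conventional dendritic cells of the control, at 384 CPM, lay above the plasmacytoid gate, at 354 CPM.

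**Figure D1:**
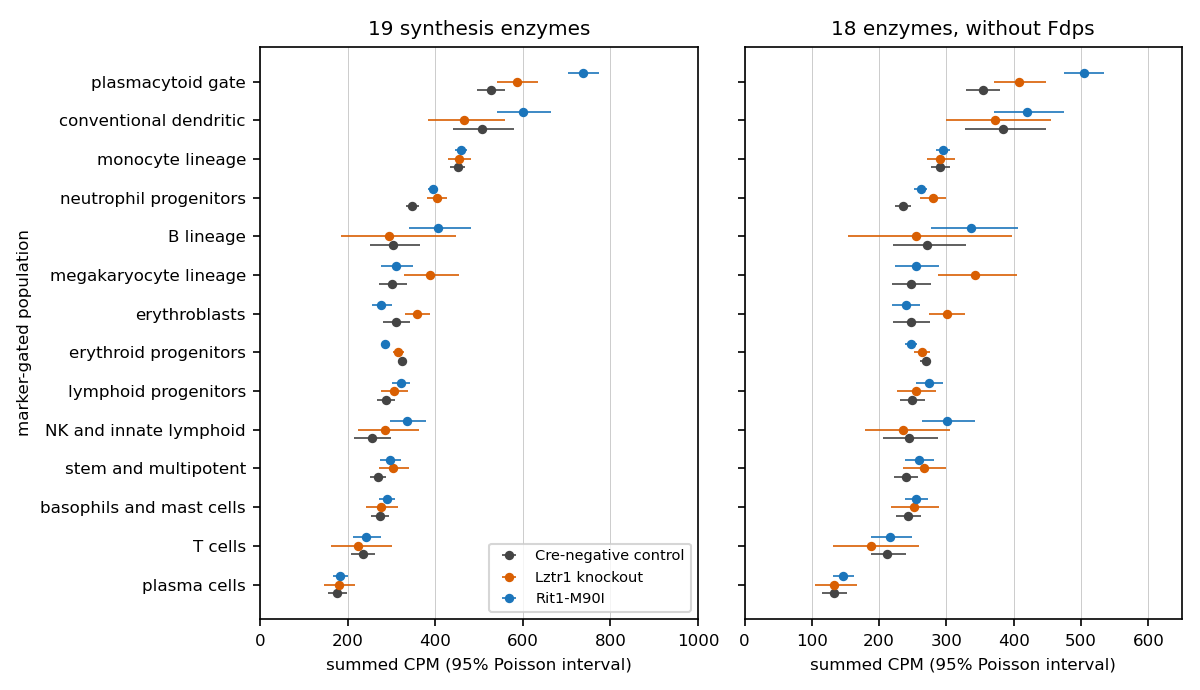
Summed CPM of the 19 synthesis enzymes (one panel) and of the 18 enzymes without Fdps (the other) in 14 gated populations, with 1 point per library and bars for the exact 95% counting interval. With all enzymes the plasmacytoid gate is highest and plasma cells are lowest in each library, and the Rit1-M90I point of the plasmacytoid gate stands above the other two.

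The plasmacytoid gate is a mixed range. It held 333 control, 129 Lztr1 knockout and 365 Rit1-M90I cells, of which 59, 30 and 69 lay near the threshold of the score. Of its 827 cells, 231 fell in cluster 20, the cluster that plasmacytoid markers name, and the rest mostly in clusters 7, 12 and 13, which no marker list names. The 3 clusters with the most of its cells were 7, 13 and 12 in the control, 20, 7 and 12 in the Lztr1 knockout and 20, 12 and 13 in Rit1-M90I. The 10 plasmacytoid markers, among them Siglech and Bst2, had a median over cells of 66.2, 66.9 and 69.6 UMIs per 10000. Lymphoid progenitor markers had medians of 21.3, 20.4 and 23.5, and monocyte markers of 16.7, 15.1 and 17.0. Between 32.6% and 49.2% of its cells were cycling by G2/M genes, fewest in Rit1-M90I.

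Of the mevalonate genes, which make the isoprenoid building blocks, Fdps varied most between gates. Fdps (chromosome 3, 89093588 to 89101959, minus strand, mm10) encodes the synthase of farnesyl diphosphate, the last shared intermediate of sterols and isoprenoids. In the plasmacytoid gate it was at 173 CPM in the control, 179 CPM for the Lztr1 knockout library and 234 CPM for Rit1-M90I. In the monocyte gate it was at 160, 164 and 164 CPM, and in neutrophil progenitors at 111, 124 and 133 CPM. Basophils and mast cells, at 30.4, 24.6 and 33.9 CPM, and stem and multipotent cells, at 29.2, 36.6 and 37.3 CPM, were the low end, so that every library of the dendritic, monocyte and neutrophil gates lay above every library of these. The mean over libraries was 6.59 times higher in the plasmacytoid gate than in basophils and mast cells. Erythroid progenitors had 53.9, 51.5 and 36.8 CPM, with Rit1-M90I the lowest.

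Hmgcs1 (chromosome 13, 119690379 to 119708260, plus strand) encodes the cytosolic synthase of HMG-CoA that opens the mevalonate route, and its promoter is the one above with both motifs. It was at 23.3 CPM in the control, 36.2 CPM for the Lztr1 knockout library and 52.4 CPM for Rit1-M90I in the plasmacytoid gate. In erythroid progenitors it was at 7.44, 10.1 and 8.94 CPM, the lowest of the 7 gates in every library. The other 5 gates lay between 15.9 and 24.0 CPM in all libraries. Idi1, the isomerase of isopentenyl diphosphate (chromosome 13, 8885501 to 8892451, plus strand), was at 24.7, 42.9 and 47.3 CPM in the plasmacytoid gate and at 8.42, 9.86 and 14.0 CPM in basophils and mast cells. Unlike Hmgcs1 it was well represented in erythroid progenitors, at 28.6, 28.6 and 25.2 CPM.

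Mvd, the decarboxylase between the mevalonate kinases and Idi1, was scarce, at 2.30, 1.98 and 2.36 CPM in stem and multipotent cells and 8.86, 6.67 and 16.8 CPM in the plasmacytoid gate. Pmvk, phosphomevalonate kinase, was highest on average in erythroblasts, at 46.7, 66.0 and 50.8 CPM, and it was at 44.5, 35.7 and 35.9 CPM in erythroid progenitors. Mvk, mevalonate kinase, ranged from 3.70 CPM in Lztr1 knockout basophils and mast cells to 15.5 CPM in Rit1-M90I plasmacytoid gate cells, over the 7 large gates. Ggps1, which makes the geranylgeranyl group for prenylation, departed from the others: its highest mean was in T cells, at 43.7, 20.8 and 44.8 CPM, and within the large gates in lymphoid progenitors, at 28.1, 27.3 and 31.8 CPM. Acat2, which condenses acetyl-CoA, had means from 10.3 CPM in basophils and mast cells to 16.9 CPM in the plasmacytoid gate over the large gates, and from 3.15 CPM in plasma cells to 17.4 CPM in erythroblasts over all 14 populations.

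**Figure D2:**
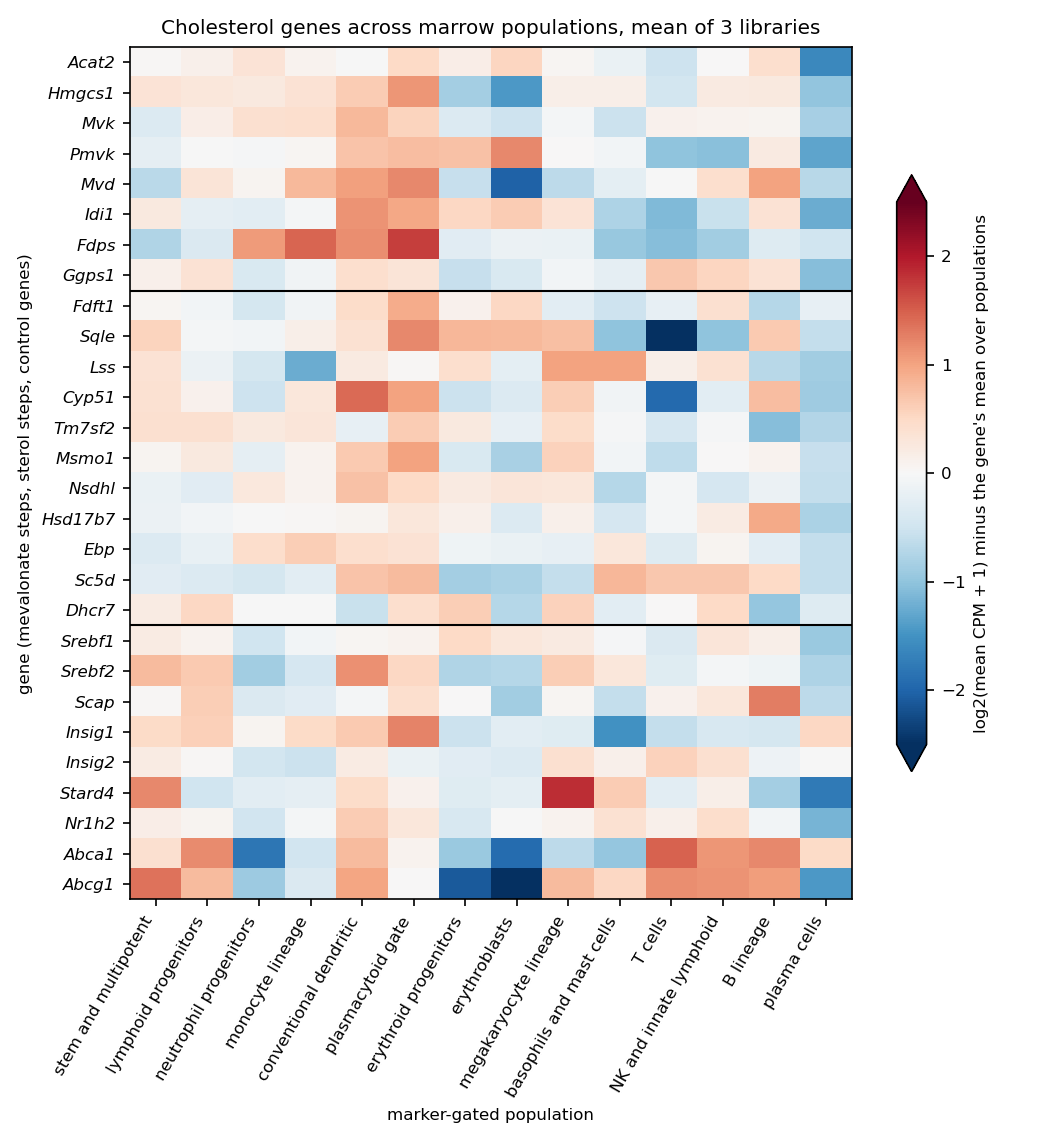
Level of each of the 28 genes in 14 gated populations, as log2 of the mean CPM over the 3 libraries plus 1, minus the mean of that gene over the populations, so that colours show where a gene is high or low and not how abundant it is. The columns of the dendritic gates are above the gene mean for most enzymes, while the exporters Abca1 and Abcg1 are high in stem, lymphoid and T cell columns and low in erythroid and neutrophil ones.

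The sterol enzymes, which turn farnesyl diphosphate into cholesterol, split into genes with the same order of gates and genes with their own. Sqle, squalene epoxidase and a rate-limiting enzyme of the route (chromosome 15, 59315077 to 59331192, plus strand), was at 23.3, 26.7 and 33.7 CPM in the plasmacytoid gate and 21.4, 23.0 and 19.2 CPM in erythroid progenitors. In basophils and mast cells it was at 5.49, 2.46 and 7.77 CPM. In T cells no Sqle UMI was read in the control or in the Lztr1 knockout, which allows up to 2.38 and 15.6 CPM, and 3 UMIs gave 3.2 CPM in Rit1-M90I. T cells and the plasmacytoid gate were therefore apart in the control and Rit1-M90I, while the Lztr1 knockout had too few T cells to show more.

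Cyp51, the sterol demethylase (chromosome 5, 4081145 to 4104746, minus strand), was at 19.6, 29.5 and 37.3 CPM in the plasmacytoid gate and 45.6, 32.3 and 37.0 CPM in conventional dendritic cells. Erythroid progenitors had 8.85, 10.8 and 8.13 CPM and neutrophil progenitors 8.17, 11.5 and 8.54 CPM. Msmo1, which removes the C4 methyl groups with Nsdhl and Hsd17b7, was at 17.7, 24.8 and 37.3 CPM in the plasmacytoid gate and 9.40, 11.2 and 7.97 CPM in erythroid progenitors. Fdft1, squalene synthase, was at 8.86, 19.1 and 15.9 CPM in the plasmacytoid gate and at 3.70 to 9.90 CPM in the other large gates.

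Basophils and mast cells, low for Fdps, Idi1 and Sqle, were at the high end for 2 later enzymes. Lss, the lanosterol synthase that closes the rings, was at 12.4, 7.39 and 14.3 CPM there and at 0.514, 2.63 and 1.59 CPM in the monocyte gate, where it rests on 3, 7 and 16 UMIs. Sc5d, the sterol desaturase of the late steps, was at 26.7, 29.6 and 28.3 CPM in basophils and mast cells, much as in the plasmacytoid gate, at 26.1, 27.6 and 29.6 CPM. Erythroid progenitors had 8.38, 8.25 and 8.05 CPM, so the 3 libraries agreed closely within each of these gates.

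Ebp, the isomerase of the late steps (chromosome X, 8185329 to 8193512, minus strand), was present in every gate. It was at 93, 73.0 and 86.3 CPM in monocytes, 76.5, 58.1 and 76.0 CPM in the plasmacytoid gate and 43.0, 43.5 and 42.0 CPM in stem and multipotent cells. Dhcr7, which makes the last reduction of one branch, was at 16.4, 16.6 and 18.3 CPM in erythroid progenitors and 7.68, 9.86 and 9.01 CPM in basophils and mast cells. Nsdhl had means from 4.61 to 12.0 CPM over the large gates. Tm7sf2, a sterol reductase, and Hsd17b7 had means of 2.83 to 5.09 CPM and of 2.55 to 4.80 CPM, levels at which single libraries crossed the order of the gates.

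**Figure D3:**
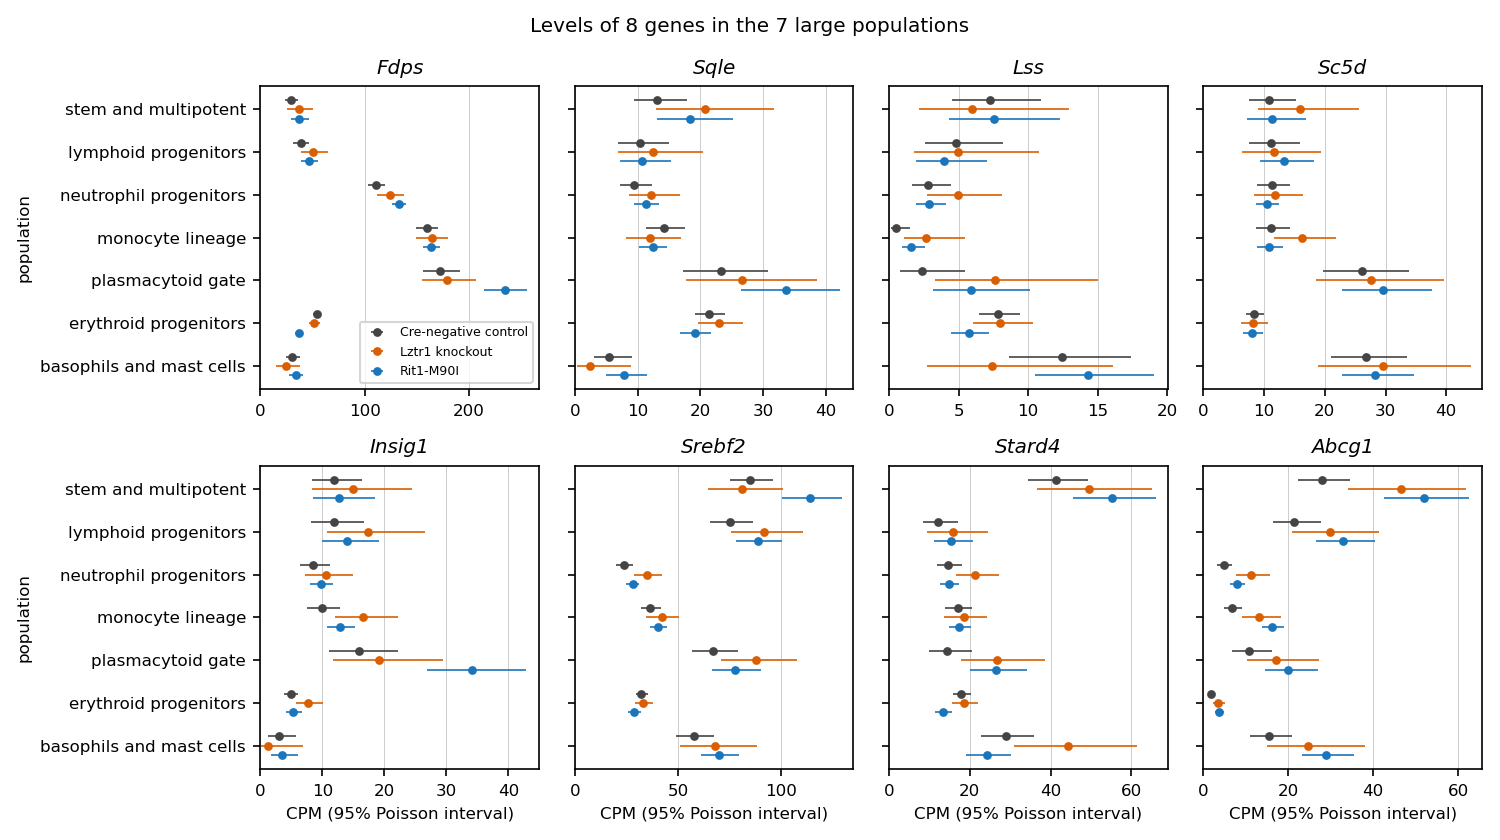
CPM of Fdps, Sqle, Lss, Sc5d, Insig1, Srebf2, Stard4 and Abcg1 in the 7 gates with at least 100 cells per library, with 1 point per library and exact 95% counting intervals. Fdps peaks in the plasmacytoid and monocyte gates, Lss and Sc5d are high in basophils and mast cells, and Srebf2, Stard4 and Abcg1 are high in stem and multipotent cells.

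The sensing and export genes had patterns of their own, with Insig1 the closest to the enzymes. Srebf2, which encodes SREBP2 (chromosome 15, 82147181 to 82205379, plus strand), was at 85.0, 81.1 and 114 CPM in stem and multipotent cells, where the enzyme sum was among the lowest. Lymphoid progenitors had 75.4, 91.9 and 88.6 CPM and the plasmacytoid gate 67.1, 87.7 and 77.8 CPM. Neutrophil progenitors, with a higher enzyme sum than stem cells, had 23.9, 34.8 and 28 CPM. That order of the sums rested on Fdps and Ebp. Without Fdps the sum was 235, 280 and 262 CPM in neutrophil progenitors and 240, 266 and 259 CPM in stem and multipotent cells. Without Fdps and Ebp it was lower in neutrophil progenitors in each library, at 167, 197 and 189 against 197, 223 and 217 CPM. Srebf2 was highest in conventional dendritic cells, at 122, 109 and 129 CPM. Over the 14 populations Srebf2 and the enzymes without Fdps had a Pearson r of 0.58 in the control, 0.59 for the Lztr1 knockout library and 0.52 for Rit1-M90I, a description of populations that share a library.

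Srebf1, whose main product drives fatty acid synthesis (chromosome 11, 60199089 to 60222581, minus strand), had its highest mean of the large gates in erythroid progenitors, at 32.1, 38.3 and 35.2 CPM, and its lowest in neutrophil progenitors, at 11.3, 22.4 and 17.3 CPM. Scap, the SREBP escort, was at 42.5, 48.8 and 34.7 CPM in lymphoid progenitors and 14.6, 23.4 and 14.3 CPM in basophils and mast cells. Both INSIG genes retain SCAP, and they had different patterns.

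Insig1, itself a target of SREBP (chromosome 5, 28071363 to 28078662, plus strand), was at 15.9, 19.1 and 34.1 CPM in the plasmacytoid gate and 2.93, 1.23 and 3.42 CPM in basophils and mast cells, a mean difference of 9.11 times. Insig2 was at 22.3, 12.3 and 16.8 CPM in basophils and mast cells and 9.32, 16.2 and 15.9 CPM in the plasmacytoid gate, so the libraries of these gates overlapped. Basophils and mast cells were therefore low in Insig1 in each library and not in Insig2.

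Stard4, a carrier that moves cholesterol between membranes (chromosome 18, 33199355 to 33213862, minus strand), was at 41.4, 49.5 and 55.2 CPM in stem and multipotent cells and higher still in the megakaryocyte gate, at 72.4, 79.9 and 78.3 CPM. Lymphoid progenitors had 12.2, 15.7 and 15.4 CPM. Nr1h2, which encodes the broadly expressed receptor LXR beta, varied little, from a mean of 27.9 CPM in neutrophil progenitors to 51.3 CPM in basophils and mast cells over the large gates.

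Both exporters were high in the early and lymphoid gates and low in erythroid and neutrophil cells. Abcg1 (chromosome 17, 31057675 to 31117988, plus strand) was at 27.9 CPM in the control, 46.5 CPM for the Lztr1 knockout library and 51.9 CPM for Rit1-M90I in stem and multipotent cells. Erythroid progenitors had 1.69, 3.41 and 3.62 CPM, and the means differed 14.5 times. In control erythroblasts no Abcg1 UMI was read, which allows up to 2.30 CPM. Abca1 (chromosome 4, 53030787 to 53159895, minus strand) was at 11.5, 19 and 16.8 CPM in lymphoid progenitors and 0.653, 1.31 and 1.35 CPM in neutrophil progenitors, where it rests on 4, 4 and 15 UMIs. Over the 14 populations the 2 exporters had a Pearson r of 0.61, 0.43 and 0.53 in the 3 libraries.

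Cycling cells were set against non-cycling cells of the same gate and library, by G2/M genes, to see whether enzyme mRNA moves with division. The enzyme sum of erythroid progenitors was higher in cycling cells in each library, by 1.52 times (1.31 to 1.77) in the control, 1.31 times for the Lztr1 knockout library and 1.31 times for Rit1-M90I. In basophils and mast cells the ratio was 1.59 (1.34 to 1.88), 1.2 and 1.25. In stem and multipotent cells it was 0.888, 0.969 and 0.926. The median over the large gates was 1.13 in the control, 1.28 for the Lztr1 knockout library and 1.16 for Rit1-M90I, and with a stricter gate that of Rit1-M90I was 0.986. The control and Lztr1 knockout medians were the values of the monocyte gate, whose intervals held 1 (0.972 to 1.32 and 0.919 to 1.83). That gate had 10 non-cycling cells in the Lztr1 knockout. Cycling cells held more UMIs than non-cycling ones by median in all 21 pairs of gate and library, and the part of depth in these ratios was not tested.

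Single genes differed more than the sum. Ebp was higher in cycling cells in 20 of the 21 pairs, with a median ratio of 1.56, and Fdps in 16 of 21, with a median of 1.29. Abca1 was higher in cycling cells in 2 of 21 pairs, with a median ratio of 0.340, Abcg1 in 4, with 0.744, and Srebf2 in 4, with 0.817. Fewer pairs had a counting interval that left out 1. It lay above 1 in 7 pairs for Ebp and 6 for Fdps, and below 1 in 4 for Abca1, 6 for Abcg1 and 4 for Srebf2. Abca1 had only 266, 147 and 446 UMIs over all kept cells. These 21 pairs are 7 gates in the same 3 libraries and not 21 replicates.

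The Rit1-M90I comparison asks how cells with the mutant allele and active Cre differ from the control, gate by gate. It differed from the control most in the plasmacytoid gate, where the enzyme sum was 1.40 times higher (1.30 to 1.51), and in the other direction in erythroid progenitors, at a ratio of 0.881 (0.843 to 0.920). Neutrophil progenitors had a ratio of 1.14 (1.08 to 1.2) and lymphoid progenitors of 1.12 (1.01 to 1.23). The ratio was 1.10 (0.993 to 1.23) in stem and multipotent cells, 1.02 in monocytes and 1.06 in basophils and mast cells, and the median over the 7 gates was 1.10. Without Fdps the plasmacytoid ratio was 1.42 and the erythroid ratio 0.920, and the interval of lymphoid progenitors then held 1, at 1.10 (0.992 to 1.22).

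In the plasmacytoid gate the higher enzymes came from both ends of the route. Hmgcs1, at 52.4 against 23.3 CPM, had a ratio of 2.25 (1.60 to 3.2), and Idi1, at 47.3 against 24.7 CPM, of 1.92 (1.36 to 2.72). Cyp51, at 37.3 against 19.6 CPM, had a ratio of 1.91 (1.30 to 2.84), and Msmo1, at 37.3 against 17.7 CPM, of 2.11 (1.42 to 3.18). Fdps had a smaller ratio of 1.36 (1.18 to 1.55), and the interval of Sqle, 1.45 (0.996 to 2.11), reached 1. Ebp was level, at a ratio of 0.994, and Ggps1 was at 0.829 (0.570 to 1.2).

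Of the control genes there, Insig1 had a ratio of 2.15 (1.42 to 3.33), Stard4 of 1.83 (1.16 to 2.92) and Abcg1 of 1.87 (1.10 to 3.24). Counted by a rule of at least 20 CPM in either library and 1.5-fold on log2 of CPM plus 10, 4 of 11 enzymes that reached the level (Hmgcs1, Idi1, Cyp51 and Msmo1) and 1 of 7 control genes (Insig1) were higher and none was lower. Of 6439 genes 0.901% were higher and 0.513% lower by this rule. The median log2 ratio of all 19 enzymes was 0.42 and that of all 9 control genes 0.34, against -0.026 over all genes tested. The count leaves out members that were low in both libraries. Cyp51, Msmo1 and Insig1 reached 20 CPM in the mutant library alone. Passing the level therefore already favours a higher call, and the direction of the count supports nothing.

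**Figure D4:**
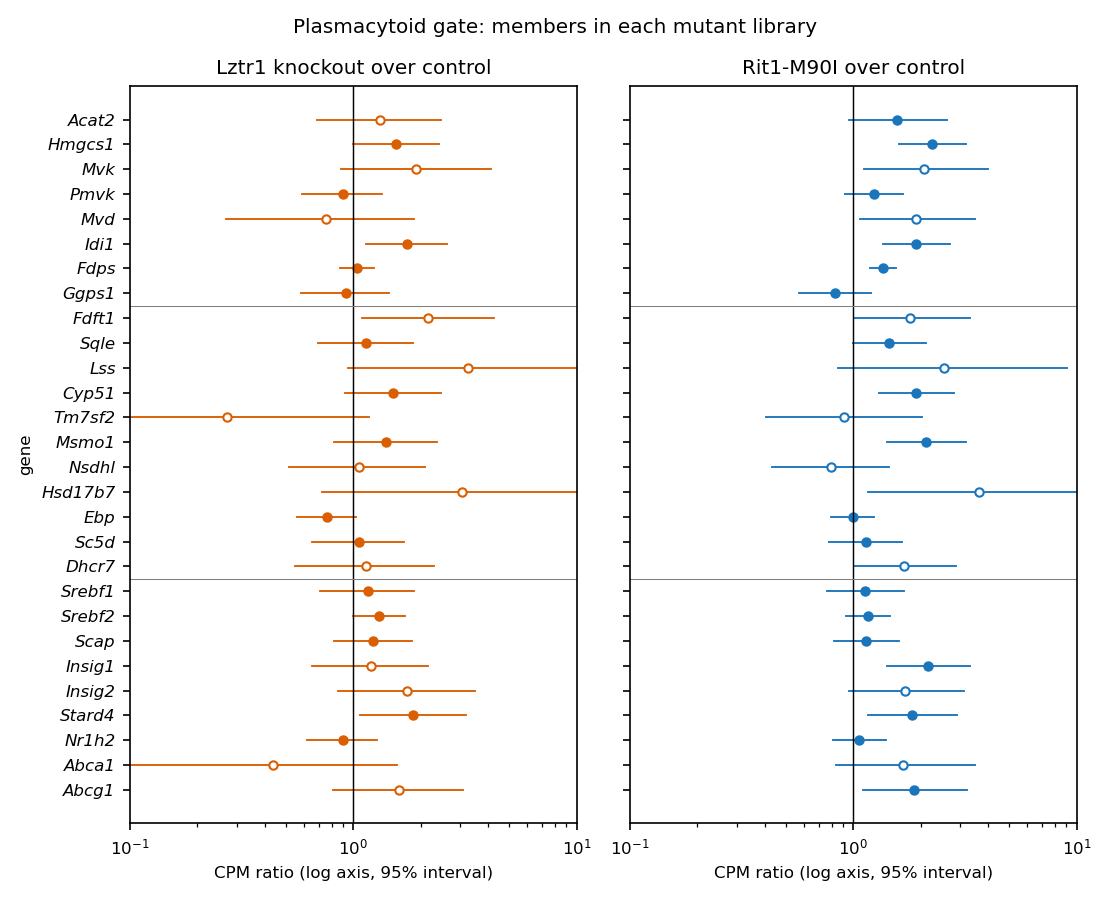
Ratio of CPM in the plasmacytoid gate over the control for each of the 28 genes, on a log axis, in both mutant libraries, with exact 95% counting intervals. Filled points reached 20 CPM in either library and open points did not, and some intervals of scarce genes run past the axis. Hmgcs1, Idi1, Cyp51, Msmo1 and Insig1 lie near or above a ratio of 2 in Rit1-M90I, while Ebp lies at 1.

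Some markers of cell makeup differed alongside this result. In the plasmacytoid gate, Siglech was at 311, 322 and 462 CPM and Ccr9, a later plasmacytoid marker, at 9.32, 6.67 and 36.4 CPM, so Rit1-M90I was highest in both. Ccr9 of Rit1-M90I was above the control in every large gate, as in lymphoid progenitors at 30.7 against 16.3 CPM. Its difference was therefore not particular to the plasmacytoid gate. Other markers of the plasmacytoid gate differed less. Bst2 was at 1069, 1001 and 1142 CPM, Cox6a2 at 503, 470 and 550 CPM and Tcf4 at 807, 835 and 992 CPM. Irf8 went the other way, at 2868, 2561 and 2696 CPM. The summed plasmacytoid markers were at 6393, 5967 and 6817 CPM, with 1, 1 and 0 of the 10 markers at 0, and the summed plasma cell markers at 311, 280 and 535 CPM, with 2 of 10 at 0 in every library. Cluster 20 held 75 of 333 cells of the gate in the control, 114 of 365 in Rit1-M90I and 42 of 129 in the Lztr1 knockout, so it took more of the gate in both mutant libraries. In Rit1-M90I the enzyme sum was higher within both parts of the gate, from 656 to 874 CPM in cluster 20 (ratio 1.33, 1.14 to 1.56) and from 500 to 693 CPM in the other clusters (ratio 1.38, 1.27 to 1.51). Of the 5 members past 1.5-fold, only Hmgcs1, at 3.57 (1.73 to 8.26), had an interval above 1 in cluster 20. Idi1 was at 1.31 (0.748 to 2.365) there, Cyp51 at 1.64 (0.814 to 3.51), Msmo1 at 1.09 (0.553 to 2.23) and Insig1 at 1.90 (0.900 to 4.37). In the other clusters all 5 intervals lay above 1. Among cycling cells the enzyme sum was 513 against 870 CPM, a ratio of 1.70 (1.52 to 1.89), and among non-cycling cells 580 against 638 CPM, a ratio of 1.10 (0.910 to 1.33). In non-cycling cells Idi1 was at 1.11 and Msmo1 at 1.15, with intervals that held 1. These splits were chosen after the values were seen. Siglech also differed within the parts, at a ratio of 1.16 (1.01 to 1.34) in cluster 20 and 1.42 (1.24 to 1.63) in the other clusters. Its ratio was 1.55 (1.33 to 1.81) in cycling and 1.02 (0.828 to 1.26) in non-cycling cells, so the splits do not hold cell makeup constant. With the whole gate replaced by cluster-named cells the ratio of the enzyme sum was 1.37. The part of cell makeup in these ratios was not tested.

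Cycling cells of the Rit1-M90I plasmacytoid gate exceeded the non-cycling ones 1.36 times (1.19 to 1.57), against 0.884 for the control and 0.886 for the Lztr1 knockout. With S phase genes in place of G2/M genes the Rit1-M90I ratio was 0.836, below 1.

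Erythroid progenitors of Rit1-M90I had less mRNA of enzymes at several steps. Fdps was at 36.8 against 53.9 CPM, a ratio of 0.682 (0.607 to 0.766), and Pmvk at 35.9 against 44.5 CPM, a ratio of 0.806 (0.713 to 0.911). Ebp was at 0.887 (0.797 to 0.986) and Lss at 0.729 (0.535 to 0.988). Stard4 was at 13.4 against 17.9 CPM, a ratio of 0.751 (0.615 to 0.915). None of the 5 enzymes at 20 CPM lay above the control, and none passed 1.5-fold, where 0.198% of genes were higher and 0.0901% lower. The median log2 ratio of all 19 enzymes was -0.045, against -0.019 over all genes tested. The summed erythroid markers were at 6288, 6066 and 6674 CPM and 70.9%, 64.2% and 69.5% of cells were cycling, and their part in the result was not tested.

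Abcg1 was above the control in each of the 7 large gates of Rit1-M90I, and the counting interval lay above 1 in all 7. In stem and multipotent cells it was at 51.9 against 27.9 CPM, a ratio of 1.86 (1.39 to 2.5). In basophils and mast cells it was at 28.9 against 15.4 CPM, a ratio of 1.88 (1.29 to 2.78), and in monocytes at 16.3 against 6.68 CPM, a ratio of 2.43 (1.71 to 3.54). It was the only member past 1.5-fold in the stem gate, where 0.545% of genes were higher and 0.272% lower, and in basophils and mast cells, where 0.504% were higher and 0.227% lower. In basophils and mast cells it reached 20 CPM in the mutant library alone, so passing the level there already favours a higher call. No member passed in lymphoid progenitors, with 0.682% of genes higher and 0.301% lower, in neutrophil progenitors, with 0.168% and 0.318%, or in monocytes, with 0.38% and 0.138%. The gates come from the same pair of libraries and are not replicates. In T cells, outside the large gates, Abcg1 went the other way, at 34.1 against 44.5 CPM.

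Other control genes of Rit1-M90I differed in single gates. Srebf2 was at 114 against 85.0 CPM in stem and multipotent cells, a ratio of 1.34 (1.12 to 1.61). Scap was at 17.2 against 26.5 CPM in monocytes, a ratio of 0.650 (0.520 to 0.812), and Srebf1 at 17.3 against 11.3 CPM in neutrophil progenitors, a ratio of 1.53 (1.16 to 2.05). Abca1 was at 12.7 against 6.57 CPM in stem and multipotent cells, a ratio of 1.94 (1.05 to 3.65). Nr1h2 had a median log2 ratio of 0.031 over the gates. In stem and multipotent cells Idi1, at a ratio of 1.72 (1.14 to 2.62), and Cyp51, at 1.72 (1.08 to 2.75), were also above the control.

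**Figure D5:**
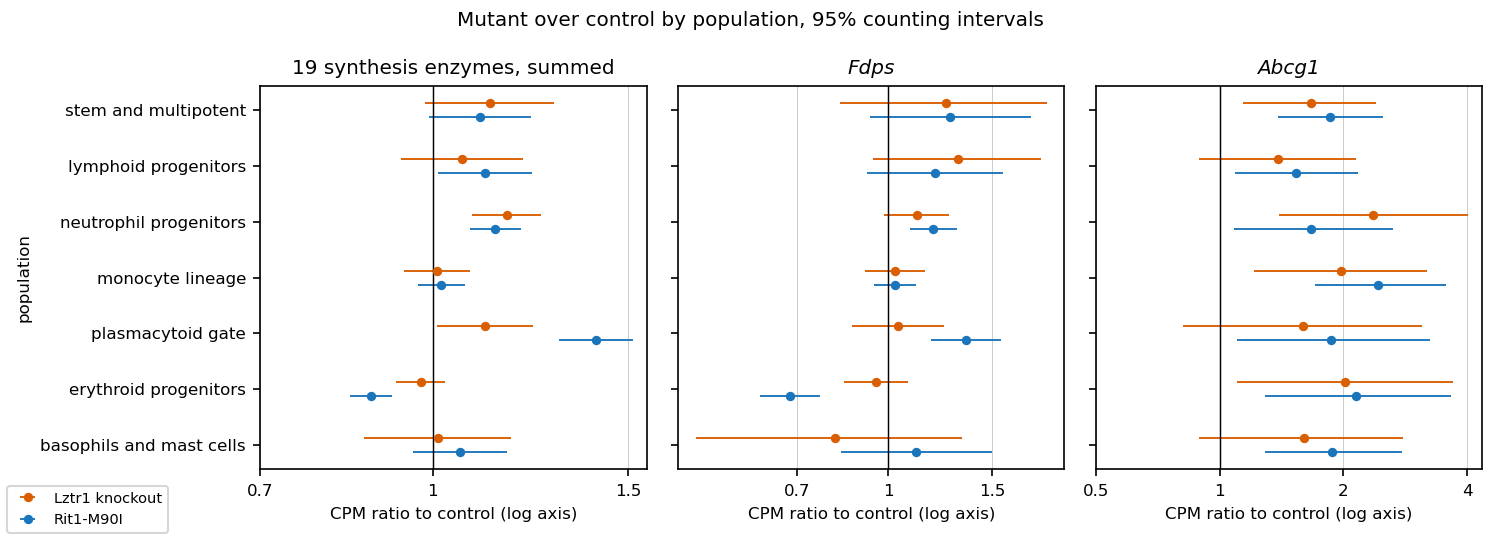
Ratio of CPM over the control, on a log axis, by gate for both mutant libraries, with exact 95% counting intervals, for the enzyme sum, Fdps and Abcg1. Abcg1 lies above 1 in every large gate of both libraries, and the enzyme sum of Rit1-M90I is above 1 in the plasmacytoid gate and below 1 in erythroid progenitors.

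The Lztr1 knockout comparison uses the same control library, so the 2 sets of ratios share its counting error and are given side by side only. The ratio of its enzyme sum was 1.17 (1.09 to 1.25) in neutrophil progenitors, 1.12 (1.01 to 1.23) in the plasmacytoid gate and 1.13 (0.984 to 1.29) in stem and multipotent cells, and its median over the 7 gates was 1.06. Split in the way used for Rit1-M90I, the plasmacytoid ratio was 1.24 (1.02 to 1.5) in cluster 20, 1.03 (0.917 to 1.16) in the other clusters, 1.01 (0.881 to 1.17) in cycling and 1.01 (0.765 to 1.33) in non-cycling cells. In erythroid progenitors it was 0.976, in monocytes 1.01 and in basophils and mast cells 1.01. In neutrophil progenitors 27.8%, 49.4% and 45.3% of cells were cycling, and the part of this in the higher sums was not tested.

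By the same rule of level and fold, 5 values passed in the Lztr1 knockout and all were higher. In stem and multipotent cells these were Idi1, at 27.7 against 14.8 CPM with a ratio of 1.88 (1.13 to 3.07), and Cyp51, at 22.8 against 11.8 CPM with a ratio of 1.93 (1.09 to 3.34), 2 of 8 enzymes where 1.66% of genes were higher and 1.58% lower. In the plasmacytoid gate they were Idi1, at 1.74 (1.14 to 2.63), and Stard4, at 26.7 against 14.5 CPM with a ratio of 1.85 (1.07 to 3.18), where 1.3% of genes were higher and 0.956% lower. Srebf1 in neutrophil progenitors, at 22.4 against 11.3 CPM with a ratio of 1.98 (1.40 to 2.81), was the other, where 0.575% of genes were higher and 0.216% lower. No member passed in lymphoid progenitors, with 1.01% of genes higher and 0.886% lower, in monocytes, with 0.322% and 0.187%, in erythroid progenitors, with 0.144% and 0.108%, or in basophils and mast cells, with 1.32% and 1.51%. Except for Idi1 in the plasmacytoid gate, these values reached 20 CPM in the mutant library alone, so passing the level already favours a higher call and the direction of the count supports nothing. The count is also unstable: it was 1 with median-of-ratios scaling and 14 with a stricter gate.

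Srebf1 was above the control in all 7 gates of the Lztr1 knockout, with the interval above 1 in 3 of them, among them monocytes at 1.38 (1.02 to 1.85). Stard4 was above the control in all 7, with the interval above 1 in 3. Abcg1 was above the control in all 7 too, and its interval lay above 1 in 4, with ratios of 1.67 (1.14 to 2.41) in stem and multipotent cells and 2.36 (1.39 to 4.01) in neutrophil progenitors. Hmgcs1 was above the control in 5 gates and Srebf2 in 6, with 1.46 (1.13 to 1.89) in neutrophil progenitors.

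Single members with a counting interval below 1 in a large gate of the Lztr1 knockout were Insig2, Mvk, Pmvk and Ebp. Mvk in erythroid progenitors was at 4.41 against 6.89 CPM, a ratio of 0.639 (0.413 to 0.964). Insig2 in monocytes was at 6.02 against 14.2 CPM, a ratio of 0.424 (0.231 to 0.729). Pmvk in erythroid progenitors was at 35.7 against 44.5 CPM, a ratio of 0.801 (0.690 to 0.928). Ebp in monocytes was at 73.0 against 93 CPM, a ratio of 0.785 (0.663 to 0.927), but it was 1.06 when clusters stood in for the gate. Nr1h2 was below the control in 6 of 7 gates, among them stem and multipotent cells at 33.6 against 48.3 CPM, with no interval below 1, and Ggps1 was below it in 5.

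Among 36 other genes of sterol, fatty acid and isoprenoid handling, Scd2 stood out in both mutant libraries. Scd2, a fatty acid desaturase driven by SREBP1, was above the control in 7 of 7 large gates in each. Control monocytes had 43.3 CPM, those of the Lztr1 knockout 79.8 CPM, a ratio of 1.84 (1.53 to 2.22), and those of Rit1-M90I 72.1 CPM, a ratio of 1.67 (1.44 to 1.93). In the plasmacytoid gate it was at 60.1, 76.3 and 104.7 CPM. Fasn, fatty acid synthase, was at 49.96 against 34.8 CPM in neutrophil progenitors of the Lztr1 knockout, a ratio of 1.44 (1.16 to 1.78).

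Other genes of that list went down or in mixed directions. Apoe, a lipid carrier, was above the control in 1 of 7 large gates of the Lztr1 knockout and in 2 of 7 of Rit1-M90I. Its interval lay below 1 in 5 gates of each and above 1 in 1 gate of each. Apoe was at 37.8, 6.67 and 13.2 CPM in the plasmacytoid gate and at 71.4, 94.7 and 33.3 CPM in neutrophil progenitors. In stem and multipotent cells it was far more abundant, at 850, 707 and 1031 CPM. Soat1, which stores cholesterol as ester, was at 12.9 against 25.9 CPM in stem and multipotent cells of the Lztr1 knockout, and Lipa, which frees cholesterol from ester in lysosomes, at 15.8 against 29.5 CPM. Coq2, which uses isoprenoids to make ubiquinone, was below the control in 7 of 7 gates of Rit1-M90I, with the interval below 1 in 1. In stem and multipotent cells of the Lztr1 knockout 1 of the 29 listed genes at 20 CPM was higher, Pdss1, and 2 were lower, Soat1 and Lipa, where 1.66% of all 6638 genes tested were higher and 1.58% lower.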

How the data were processed

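Lineage-negative marrow of 3 genotypes was measured in 1 library each. Matrices deposited by the authors hold whole UMI counts that were not normalized, written by Cell Ranger 6.1.1 per the file headers. The submitters' processing notes name mm10 and Seurat 4.1.0. For cell calling and annotation the settings were not given in the sources used, and positions are those of GENCODE vM21.

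Barcodes with at least 1000 UMIs, 500 genes and at most 10% mitochondrial UMIs were kept (11.2% to 19.6% removed), and scrublet doublets were removed within each library (3.47% to 4.75%), with scanpy 1.11.5, numpy 2.4.6, scipy 1.17.1 and pandas 2.3.3 in python 3.11.15. A cell joined a gate where its score over that gate's markers exceeded 1, led the next gate by 0.5 and rested on at least 3 markers, from 18 lists of 181 markers. Late neutrophils, eosinophils, stroma and macrophages were left out for too few cells. UMIs were summed per gate and library and scaled to CPM, with exact Poisson intervals for levels and exact conditional intervals for ratios. Fold calls and interval coverage were tested on counts simulated from the summed counts of erythroid progenitors and the plasmacytoid gate. The gating itself was not tested on simulated data. Cycling cells had at least 10 UMIs of G2/M genes per 10000 and non-cycling cells at most 2. Alternatives were clusters in place of gates, a stricter gate, a stricter cell filter, doublets kept, median-of-ratios scaling, equal weight per cell, another pseudocount, no filter on low genes, S phase genes and the sum without Fdps.

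The 28 members, the lists and the rules were chosen with earlier results of these data known. Members were described in full by rule where they had the widest range over gates (6 enzymes, 4 control genes) or the 4 highest or 4 lowest median ratios of a comparison, together with Insig1, Insig2, Srebf1, Srebf2, Abca1 and Abcg1. Other pathway genes were named as the 2 highest and 2 lowest medians. Values of the remaining members, of Pdss1 and of the split gate were chosen after they were seen. Antisense transcripts overlap Hmgcs1 and Lss, and no source used here states whether counting used strand.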

Additional observations from a re-analysis of the deposited data

Results flagged for a closer look

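Some values lay on opposite sides of the control in different gates of the same comparison, with counting intervals that leave out 1 on both sides. Single genes are listed here only where they also reached 20 CPM in either library of those gates. Stard4, Msmo1 and Hsd17b7 of Rit1-M90I had such intervals on both sides but missed that level on at least one side. In no case was the difference between gates tested, since each gate has 1 library per genotype. In Rit1-M90I the summed synthesis enzymes were above the control in lymphoid progenitors, at a ratio of 1.12 that was 1.10 (0.992 to 1.22) without Fdps, in neutrophil progenitors, at 1.14, and in the plasmacytoid gate, at 1.40, and below it in erythroid progenitors, at 0.881. Fdps of the same library was above the control in neutrophil progenitors, at a ratio of 1.19, and in the plasmacytoid gate, at 1.36, and below it in erythroid progenitors, at 0.682. In the Lztr1 knockout Ebp was above the control in neutrophil progenitors, at a ratio of 1.2, and below it in monocytes, at 0.785.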

How the results depend on the processing

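No paired analysis was possible because each genotype has 1 library, and no replicate could be left out for the same reason. Intervals cover counting error only. Of the ratios of single genes under the alternatives, 1530 stayed within the counting interval, 27 moved and 1 reversed. Of the values of single gates 372 stayed, 97 moved and 4 reversed. Only a ratio whose main interval left out 1 could be called reversed. One whose interval held 1 could change side and still be counted as stayed. The count of members past 1.5-fold in the Lztr1 knockout, 5, was 9 with clusters in place of gates, 14 with a stricter gate, 3 with doublets kept, 1 with median-of-ratios scaling, 8 with equal weight per cell, 8 with no filter on low genes and 12 with a pseudocount of 1 CPM. That of Rit1-M90I, 7, was 14 with a pseudocount of 1 CPM. The highest over lowest enzyme sum of the 7 gates was, in the control, 2.5 with clusters, 2.27 with a stricter gate, 2.24 with equal weight and 1.5 without Fdps, against 1.96. In the Lztr1 knockout it was 2.95 with clusters and 1.62 without Fdps, against 2.13, and in Rit1-M90I 3.09, 2.89, 2.84 and 2.03 in the order given for the control, against 2.59. Clusters held no lymphoid progenitors, so that gate has no value there. The ratio of cycling to non-cycling cells reversed in neutrophil progenitors: it was 0.982 in the control with clusters, 0.859 in the Lztr1 knockout with S phase genes and 0.986 in Rit1-M90I with a stricter gate, which also made the Rit1-M90I median 0.986. In the plasmacytoid gate of Rit1-M90I it was 0.836 with S phase genes. Ebp in Lztr1 knockout monocytes was 1.06 with clusters. The cause was not tested for any of these. The sum without Fdps, the sum without Fdps and Ebp and the split of the plasmacytoid gate were chosen after seeing the data.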
